A study of Mus musculus with 4 samples.

Results

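The heat shock proteins described here are the products of 10 mouse genes that encode inducible and constitutive chaperones: Hspa1a, Hspa1b, Hspa8, Hsph1, Hsp90aa1, Hsp90ab1, Dnajb1, Hspb1, Hspd1 and Hspe1. They were chosen by name, and every non-control array probe that carries one of these names was taken. A probe was found for 9 of the 10 genes, among 36161 gene names on the array, and these 9 genes have 14 probes. No probe is named Hspa1b. The probe named Hspa1a lists a transcript of each of the 2 genes, so its signal stands for both together.

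Liver RNA of naturally small (microsomic) mice and of control mice was compared within each sex, to ask which transcripts differ in the liver of animals born small from a single inbred genotype. The groups are microsomic females (MF), control females (CF), microsomic males (MM) and control males (CM), all C57BL/6J at embryonic day 20 according to the labels, whereas the methods speak of newborns of C57BL/6 N. The labels name no transgene and no treatment in any group. The microsomic animals were defined by a low body weight for their sex and the controls were littermates of usual weight. Each group is represented by 1 array of whole liver, and how many animals an array holds is not stated. The methods describe independent replicate experiments for every group, whereas the series holds these 4 arrays alone. Differences between 2 arrays therefore carry no p-value and describe these arrays.

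Heat shock proteins hold unfolded or newly made proteins and help them to fold. HSP70 proteins bind short stretches of client chains in a cycle that J proteins start and that nucleotide exchange factors such as HSP110 reset, HSP90 proteins complete the folding of kinases and steroid receptors, small heat shock proteins keep damaged proteins from clumping, and a barrel of HSP60 capped by HSP10 folds proteins in the mitochondrial matrix. When proteins unfold, heat shock factor 1 binds heat shock elements, arrays of alternating GAA and TTC units in promoters, and many of these genes are transcribed together.

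The identity of the tissue and the scale of the values come first. All 11 hepatocyte markers (Alb, Afp and others) exceeded background clearly on each of the 4 arrays, and their summed level was 5310 to 8150 times the 75th percentile of the array. Levels below are processed signals on a log2 scale on which 0 is the 75th percentile of the same array. All 14 probes were well above background on all 4 arrays, and none was saturated or carried an outlier flag. The only error that 1 array can give is the spread between spots of the same probe: over 280 probes printed at 10 spots each, its SD was 0.237 to 0.328 on an array, 0.37 for MF minus CF and 0.40 for MM minus CM. It leaves out the spread between animals. A probe's level cannot be set against that of another probe, so levels are compared only between arrays.

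The promoters are shown first because the genes are known for transcription through heat shock elements and because a promoter lies between 2 of them. RefSeq promoter windows of GRCm38.p6, from 250 bases before to 50 bases after a start site, were found for 7 of the 10 genes and not for Hspa8, Hsp90aa1 and Hsp90ab1. Hspd1 and Hspe1, which encode the barrel and the cap of the mitochondrial chaperonin, are transcribed away from each other from start sites 216 bases apart. The stretch between them, read on the strand of Hspe1, holds 4 alternating units in a row, in capitals:
Hspd1 to Hspe1, chr1:55087933-55088147, plus strand: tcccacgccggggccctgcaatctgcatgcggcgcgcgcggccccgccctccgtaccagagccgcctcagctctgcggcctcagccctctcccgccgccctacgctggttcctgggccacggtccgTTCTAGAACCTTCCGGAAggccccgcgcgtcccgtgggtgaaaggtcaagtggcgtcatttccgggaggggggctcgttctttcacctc
Hspa1a, chr17:34972157-34972406, minus strand: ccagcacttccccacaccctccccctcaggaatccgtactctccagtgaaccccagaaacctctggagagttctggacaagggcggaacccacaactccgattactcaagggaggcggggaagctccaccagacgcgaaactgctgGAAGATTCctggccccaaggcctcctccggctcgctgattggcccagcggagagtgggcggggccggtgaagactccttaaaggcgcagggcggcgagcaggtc
Hspb1, chr5:135887669-135887918, plus strand: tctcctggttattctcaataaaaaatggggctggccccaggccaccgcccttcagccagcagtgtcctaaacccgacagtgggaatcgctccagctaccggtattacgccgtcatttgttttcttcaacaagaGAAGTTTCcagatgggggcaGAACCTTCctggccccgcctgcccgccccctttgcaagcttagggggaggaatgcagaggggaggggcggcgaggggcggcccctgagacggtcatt

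In these sequences the capitals mark matches to GAANNTTC or TTCNNGAA, where N is any base; both read the same on the other strand, and longer arrays are overlaps of them. A pair of units was found in 7 of the 10 windows, those of Hspa1a, Hspa1b, Hspb1, Hspd1, Hspe1 and Hsph1, and in 15.1% of all 32851 windows. At least 3 units in a row were found in windows of Hspd1, Hspe1 and Hsph1 and in 0.603% of all windows. The 4 units between Hspd1 and Hspe1 lie 89 bases before the start site of Hspe1, and 4 units were found in 0.0244% of all windows. In Hsph1 the 3 units lie after the annotated start sites. The windows of Hspa1a and Hspa1b differ at 4 of 300 bases. Neither window of Dnajb1 holds these letters, which says nothing about the factor elsewhere in the gene. Binding was not measured, and a match is a description of letters.

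In females 5 of the 9 genes differed by more than 1.5-fold between microsomic and control liver, and in males 1 did. In MF vs CF, Hsp90ab1, Hspd1 and Hspb1 were higher, and Dnajb1 and Hspe1 were lower. In MM vs CM, Hsph1 was higher. Over all genes with at least 1 array of the pair well above background, 40.9% of 25538 passed 1.5-fold in MF vs CF (19.9% higher and 21.1% lower) and 40.6% of 26315 in MM vs CM (17.5% higher and 23.1% lower). With 9 genes, nothing particular to heat shock proteins is read from these counts. The split depends on the scaling: 3 were higher and 2 lower on MF as reported, 4 and 2 with median centring of the arrays, and 4 and 1 without scaling, where the share of higher genes among all those past 1.5-fold was 48.5%, 57.1% and 79.6%. In MM vs CM the heat shock proteins past 1.5-fold were 1, 4 and 6, all higher, beside shares of 43.1%, 60.8% and 78.3%. With quantile normalization 3 were higher and 4 lower on MF, beside a share of 45.3%. In MM vs CM 2 then passed, both higher, beside 48.6%. The median difference over the 9 genes was -0.04 in MF vs CF and 0.32 in MM vs CM, beside -0.11 and -0.07 over all genes well above background on both arrays. Without scaling the medians over all genes were 0.29 and 0.49, and centring on the median made that of MM vs CM 0.17.

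**Figure D1:**
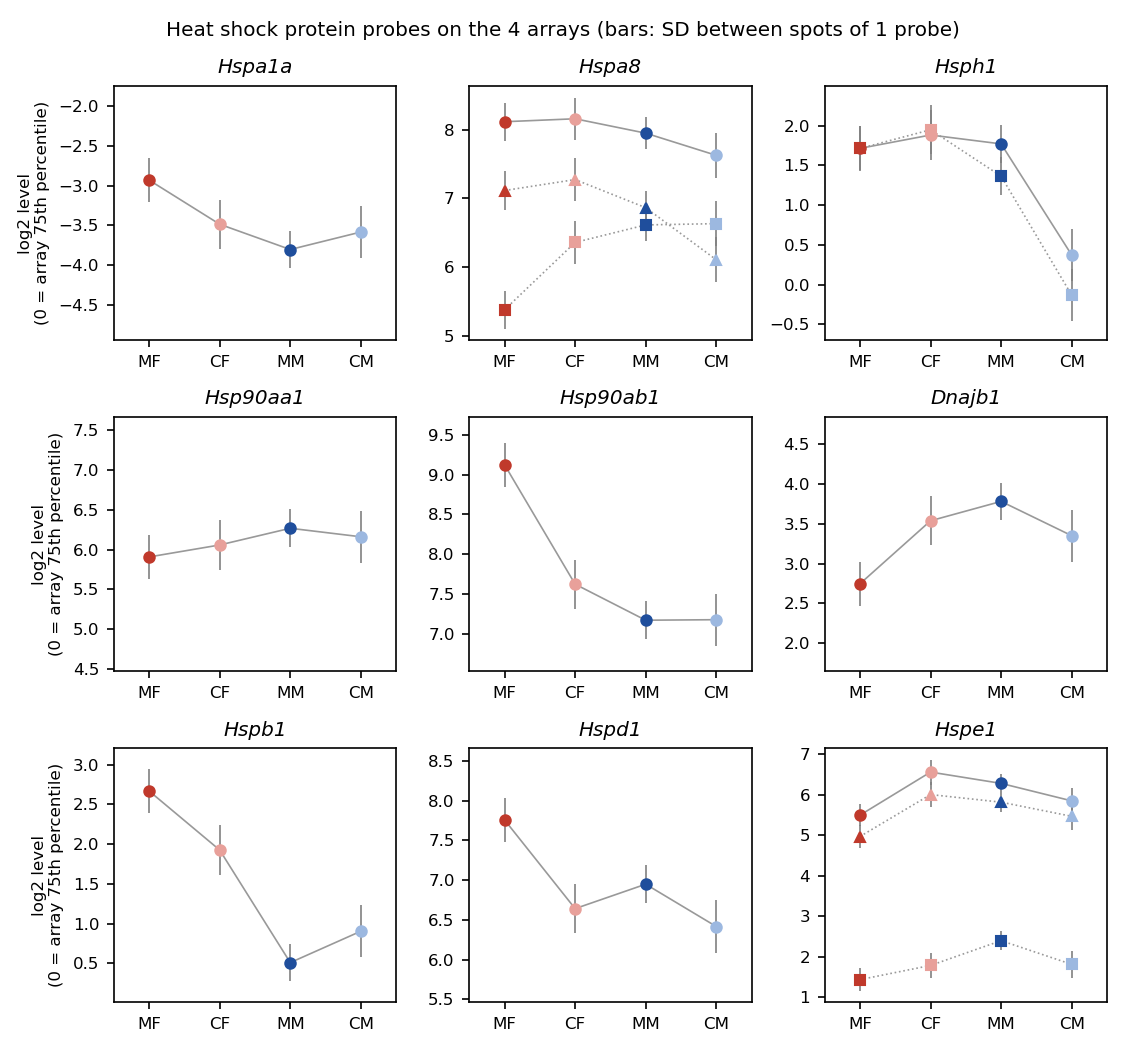
Level of each probe on the 4 arrays, 1 panel for each gene; the y axes are log2 levels with 0 at the 75th percentile of the array and differ between panels, and the x axis gives the group. Circles and solid lines are the brightest probe of the gene, squares, triangles and dotted lines its other probes, and bars are the SD between spots of 1 probe. Hsp90ab1, Hspb1, Hspd1 and Hspa1a are highest on MF, Dnajb1 and Hspe1 are lowest there, and both Hsph1 probes are lowest on CM.

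Of the HSP70 group, Hspa1a encodes the stress-inducible HSP70. Its probe (A_55_P2068459), which lies at chr17:35107117-35107176 on the minus strand of mm9 and begins tgacaagaagaaggtgctggacaagtgcca, had log2 levels of -2.93 on MF, -3.49 on CF, -3.80 on MM and -3.58 on CM. The processed signals behind them were 117 on MF, 60.3 on CF, 66.2 on MM and 52.3 on CM. The probe of the inducible HSP70 genes thus lay below the 75th percentile on every array, with its highest value on MF at this scaling. MF exceeded CF by 0.56, which is 1.47-fold and short of 1.5-fold, and MM was below CM by a difference of -0.22, which is within the SD between spots. The levels of CF and CM lay 0.10 apart, within that SD too. The direction in females depends on the processing: MF minus CF was -0.45 with the trend over the array position removed and 1.10 with the scanner software's detrending undone.

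Hspa8 encodes the constitutive HSP70 of the cytosol and has 3 probes on mm9 chromosome 9, which did not move together. On the brightest (A_55_P2080603, chr9:40613223-40613282) the levels were 8.12 on MF, 8.16 on CF, 7.95 on MM and 7.63 on CM, a range of 0.53. On A_55_P2069721 (chr9:40612755-40613050, a span longer than the probe, so it crosses an intron) they were 7.12 on MF, 7.28 on CF, 6.86 on MM and 6.11 on CM. On A_52_P12877 (chr9:40611142-40611201) they were 5.38 on MF, 6.36 on CF, 6.61 on MM and 6.63 on CM. MF minus CF was thus between -0.98 and -0.04 depending on the probe, and MM minus CM between -0.02 and 0.76. On the brightest probe, MF minus CF was -0.79 with quantile normalization and -0.62 when normexp preceded it, and MM minus CM was -0.21 with the position trend removed and 1.05 with normexp. The probes A_55_P2080603 and A_55_P2069721 also list a non-coding transcript, and A_52_P12877 does not.

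Hsph1 encodes HSP110, the exchange factor of cytosolic HSP70. Its brightest probe (A_55_P2176963, chr5:150419744-150419803) had levels of 1.71 on MF, 1.88 on CF, 1.77 on MM and 0.37 on CM. The second probe (A_55_P2003513, chr5:150420110-150420169) had 1.71 on MF, 1.95 on CF, 1.36 on MM and -0.13 on CM. Both probes thus put CM alone below the other 3 arrays, and MF minus CF was -0.17 on the brightest and -0.24 on the other. MM exceeded CM by 1.40 (2.64-fold) on the brightest and by 1.496 on the other, and CF exceeded CM by 2.85-fold on the brightest. With the trend over the position on the array removed, MM minus CM of Hsph1 was 0.20. In the other 10 of 11 alternatives it stayed over 1.5-fold. Counts out of 11 alternatives include some that could not change a value. All 14 probes are unflagged and bright, so keeping flagged spots and the other filters on dim probes had no effect here. For a gene with 1 probe, the mean over its probes had none either.

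**Figure D2:**
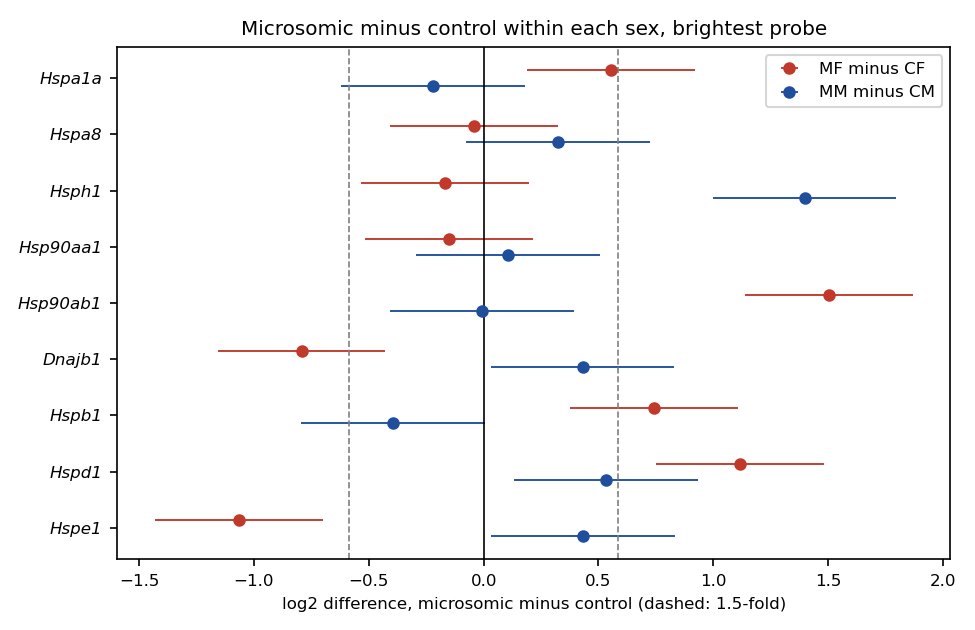
Difference of microsomic minus control on the log2 scale (x axis) for the brightest probe of each gene (y axis), females in red (MF minus CF) and males in blue (MM minus CM). Bars are the SD of such a difference between spots of 1 probe, and dashed lines are 1.5-fold. Hsp90ab1 (1.503 in females, -0.01 in males) and Hsph1 (-0.17 and 1.40) are past 1.5-fold in 1 sex alone, as are Hspb1, Hspd1, Dnajb1 and Hspe1. All genes but Hspd1 lie on opposite sides of 0 in the sexes, many of them by less than the bars in at least 1 sex.

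The 2 cytosolic HSP90 genes differed from each other in pattern. Hsp90aa1, the more inducible form, had levels of 5.91 on MF, 6.06 on CF, 6.27 on MM and 6.16 on CM on its probe A_55_P2057946 (chr12:111929248-111929307). These span 0.36, and no neighbours in their order differ by more than the SD between spots. MF minus CF was -0.15 as reported, -0.79 with quantile normalization and -1.001 when normexp preceded it, and MM minus CM, 0.11 as reported, was -0.44 with the position trend removed. Hsp90ab1, the constitutive form, had levels of 9.12 on MF, 7.62 on CF, 7.17 on MM and 7.17 on CM on its probe A_55_P2048434 (chr17:45704788-45704847). MF thus stood apart, 1.503 (2.83-fold) above CF, and MM and CM differed by 0.01. This was the largest of the differences in MF vs CF among the 9 genes. MF minus CF stayed above 0 in 11 of 11 alternatives, from 0.39 to 1.90. Keeping flagged spots, the mean over the probes and the other filters on dim probes could not change it.

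The only Hsp90ab1 probe holds a run of 9 C and T bases, in capitals in its first 30 bases: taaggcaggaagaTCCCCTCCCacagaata. Probes rich in such runs (at least 4 windows of 5 bases of C and T with at least 3 C) had an MF minus CF at or above that of Hsp90ab1 more often than other probes, 7.65% of 2746 against 2.92% of 22299 probes well above background on all 4 arrays. Their median MF minus CF was -0.04, against -0.12 for the others, and their median MM minus CM was -0.34, against 0.0095. The Hspe1 probes A_55_P2089358 and A_66_P124952, described below, also reach this cutoff, with 5 and 4 windows. The part of the probe sequence in the Hsp90ab1 and Hspe1 differences was not tested.

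Dnajb1 encodes HSP40, a stress-inducible J protein that starts the HSP70 cycle. On its probe A_51_P153486 (chr8:86135660-86135719) the levels were 2.75 on MF, 3.54 on CF, 3.78 on MM and 3.35 on CM. MF was the lowest, by 0.61 below CM, and the neighbours MM, CF and CM in the order from high to low were 0.24 and 0.19 apart. MF minus CF was -0.79 (1.73-fold lower) and MM minus CM was 0.43, near the SD between spots. The direction depends on the processing in both sexes. MF minus CF was 0.35 with the trend over the array position removed and 0.08 with the detrending undone, and MM minus CM was -0.37 with normexp and -0.28 with the detrending undone. The spot lies near the left edge of the array, and the software divided its signal by 1.15 on MF and by 0.625 on CF.

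Hspb1 encodes HSP25, a small heat shock protein also bound to actin filaments. Its probe A_55_P2039284 (chr5:136365366-136365425) had levels of 2.67 on MF, 1.92 on CF, 0.51 on MM and 0.90 on CM. Both female arrays were above both male arrays, and the nearest of them, CF and CM, differed by 1.02 (2.03-fold). MF minus CF was 0.74 (1.67-fold) and MM minus CM was -0.40. MF minus CF was -0.22 with the position trend removed and over 1.5-fold in the other 10 of 11 alternatives.

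Hspd1, which encodes HSP60, had levels of 7.76 on MF, 6.64 on CF, 6.95 on MM and 6.42 on CM on its probe A_55_P1955587 (chr1:55134697-55134756). It was the only one of the 9 genes with a difference past the SD between spots in the same direction in both sexes, 1.12 (2.17-fold) in MF vs CF and 0.53 (1.45-fold) in MM vs CM. Hspd1 was higher in microsomic than in control liver in both sexes under 11 of 11 alternatives. MF minus CF ranged from 0.06 to 1.52 and MM minus CM from 0.15 to 1.26. Keeping flagged spots, the mean over the probes and the other filters on dim probes could not change these values. The lowest female value was obtained when normexp was followed by quantile normalization, and quantile normalization alone gave 0.27.

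Hspe1, which encodes HSP10, did not follow Hspd1 in females although the genes share the promoter shown above. Its brightest probe A_66_P124952 (chr1:55148026-55148085) had levels of 5.50 on MF, 6.56 on CF, 6.28 on MM and 5.85 on CM. MF was the lowest and CF the highest, which is 2.09-fold lower in microsomic females (-1.07), and MM minus CM was 0.43. A second probe, A_55_P2089358, is the same stretch moved by 3 bases with C15T as the only difference (positions counted from its 5′ end; the base concerned is in capitals), and had 4.97 on MF, 6.01 on CF, 5.82 on MM and 5.47 on CM:
A_55_P2089358, bases 4 to 33: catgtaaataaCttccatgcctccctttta
A_66_P124952, bases 1 to 30: catgtaaataaTttccatgcctccctttta

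The overlapping probes gave nearly the same differences, -1.04 and -1.07 in MF vs CF and 0.35 and 0.43 in MM vs CM, but being copies of a single stretch they are not independent. The remaining probe lies outside that stretch (A_55_P1953063, chr1:55147620-55147946, across an intron) and had levels of 1.43 on MF, 1.78 on CF, 2.39 on MM and 1.81 on CM. Its MF minus CF was -0.35, less than the SD between spots, and its MM minus CM was 0.59, so the directions were those of the other probes with a smaller difference in females. It also lists a predicted transcript that was not matched to a gene. Both overlapping probes lie near the left edge of the array like that of Dnajb1, where the software divided by 1.15 on MF and by 0.667 on CF for the brightest, and with this detrending undone MF minus CF was -0.28. It stayed over 1.5-fold lower in the other 10 of 11 alternatives. MM minus CM turned to -0.41 with the detrending undone and to -0.46 with normexp, so that Hspe1 was lower in microsomic liver in both sexes under these alternatives.

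**Figure D3:**
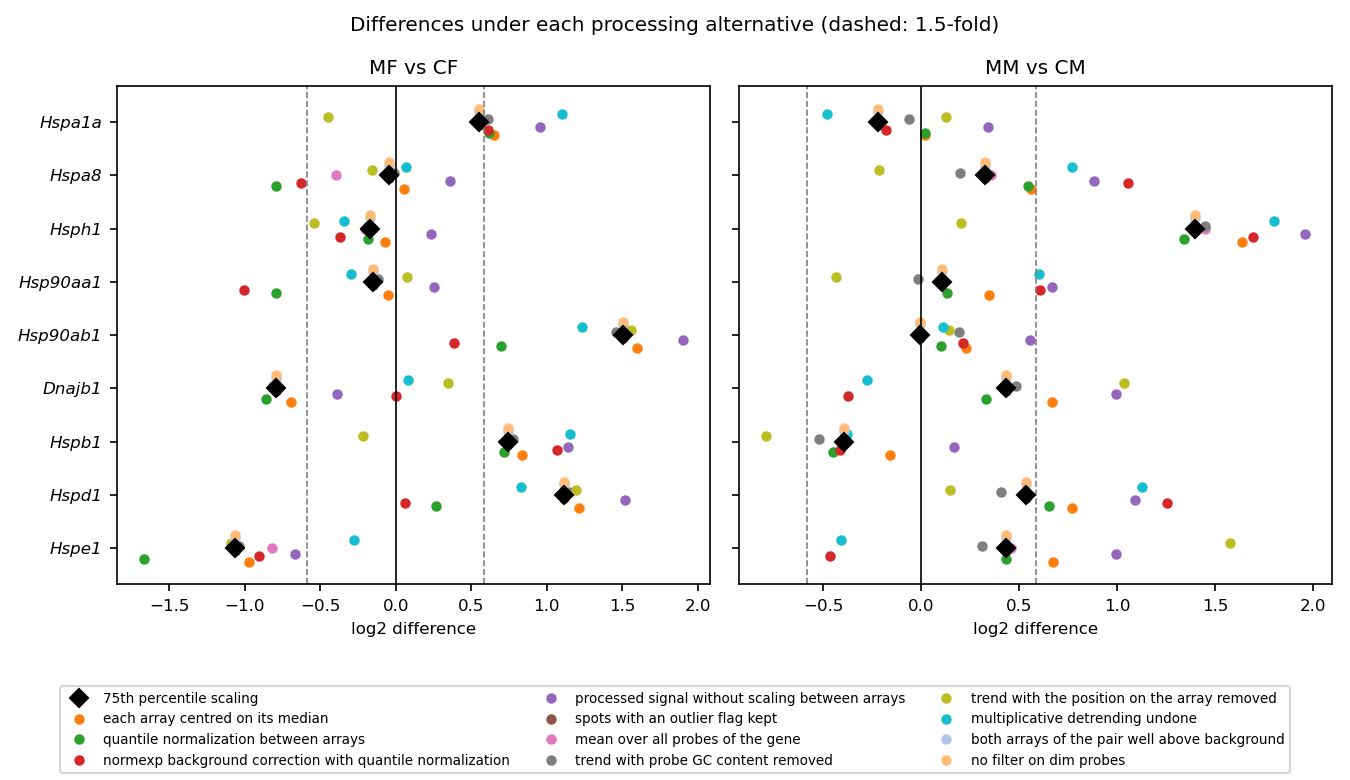
Difference of microsomic minus control on the log2 scale (x axis) for each gene (y axis) in females (left) and males (right), as reported (black diamonds) and under 11 processing alternatives (coloured points); dashed lines are 1.5-fold. Hsp90ab1 in females ranges from 0.39 to 1.90 and Hspd1 stays above 0 in both sexes, whereas Dnajb1 and Hspb1 in females cross 0.

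Between the sexes, 3 of the 9 genes differed by more than 1.5-fold in CM vs CF, where 46.1% of all genes did. Hsph1, Hspb1 and Hspe1 were lower on CM. In MM vs MF, 6 of the 9 did and 48.9% of all genes. Dnajb1 and Hspe1 were higher on MM, and Hsp90ab1, Hspb1, Hspd1 and Hspa1a were lower. Hspb1 was the only gene over 1.5-fold lower in males in both comparisons, which have no array in common. Hspa1a, Hspa8, Hsp90ab1 and Hspd1 were also below 0 in both, but short of 1.5-fold in CM vs CF. When arrays were centred on their medians instead, 7 of the 9 passed in CM vs CF, all lower, and the share of higher genes among all those past 1.5-fold moved from 57.7% to 30.7% in CM vs CF and from 59.0% to 38.6% in MM vs MF.

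Taking the sexes as replicates, limma with condition and sex as terms found no heat shock protein that differed between microsomic and control liver. The fit has 1 residual degree of freedom. Hspd1 had the smallest p, with a mean difference of 0.82 (SE 0.43), an unadjusted limma p of 0.0913 and an adjusted p of 0.995 over 19303 genes. The calls over all genes were 0, which is 0.0%, while 853 genes had an unadjusted p under 0.05 and the smallest adjusted p was 0.964. Hsp90ab1 had 0.75 (SE 0.50) with an adjusted p of 0.995 from limma. A p of this size does not show that the groups are alike.

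The other chaperones, a list of 67 genes by family, were read in the same way. Of the 63 with a value in MF vs CF, 21 passed 1.5-fold, 5 higher and 16 lower, beside 40.9% of all genes, and the median of the list was -0.10 beside -0.11 over all genes. Of the 64 in MM vs CM, 20 passed, 14 higher and 6 lower, beside 40.6% of all genes, with a median of 0.14 beside -0.07. In limma 0 of 58 passed, and 1 had an unadjusted p under 0.05. The share of these chaperones past 1.5-fold was thus below that of all genes in both sexes, and nothing particular to the list is read from it.

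J proteins, the partners of HSP70, were below 0 in MF vs CF in 9 of 12 cases and above 0 in MM vs CM in 10 of 12. The share of all genes on either side of 0 was not computed, and their medians were -0.11 and -0.07. Of the 12, 6 were over 1.5-fold lower in MF vs CF and none higher, beside 21.1% and 19.9% of all genes, with a median of -0.57. In MM vs CM 3 were over 1.5-fold higher and none lower, beside 17.5% and 23.1% of all genes, with a median of 0.23. Of 17 co-chaperones, 3 were over 1.5-fold higher and 1 lower in MF vs CF, and 6 were higher and none lower in MM vs CM. Of 8 subunits of the cytosolic chaperonin TRiC, 2 were higher and 2 lower in MF vs CF, and 1 was higher and 1 lower in MM vs CM. The shares of all genes beside these counts are those given for the J proteins. With so few genes in a family, nothing particular to it is read from these counts.

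In both sexes, 5 genes of this list passed 1.5-fold in the same direction. Fkbp4, an HSP90 partner of steroid receptors, had levels of 3.42 on MF, 2.61 on CF, 3.37 on MM and 2.49 on CM, so both microsomic arrays were above both control arrays (1.76-fold and 1.83-fold). Bag5, an exchange factor of HSP70, was 1.84-fold higher on MF and 1.64-fold higher on MM. Hspa12b, a distant HSP70 of endothelium, was 2.0-fold lower on MF and 1.68-fold lower on MM. Grpel2, an exchange factor of mitochondrial HSP70, was 1.71-fold and 1.72-fold lower, and Cryab, a small heat shock protein of muscle and lens, was 4.11-fold and 2.18-fold lower. The calls of these genes depend on the processing. Fkbp4 was short of 1.5-fold in MM vs CM at 0.50 with normexp and 0.57 with the detrending undone, and Cryab there at -0.57 without scaling and -0.48 with the position trend removed. Hspa12b was -0.46 in MF vs CF with normexp, and in MM vs CM -0.51 with median centring, -0.19 without scaling and -0.11 with the position trend removed. Bag5 was -0.078 in MF vs CF and 0.31 in MM vs CM with the position trend removed, 0.45 in MF vs CF with the mean over its probes and 0.46 in MM vs CM with the GC trend removed. The direction of Grpel2 turned under several alternatives, in males to 1.03 with the detrending undone.

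**Figure D4:**
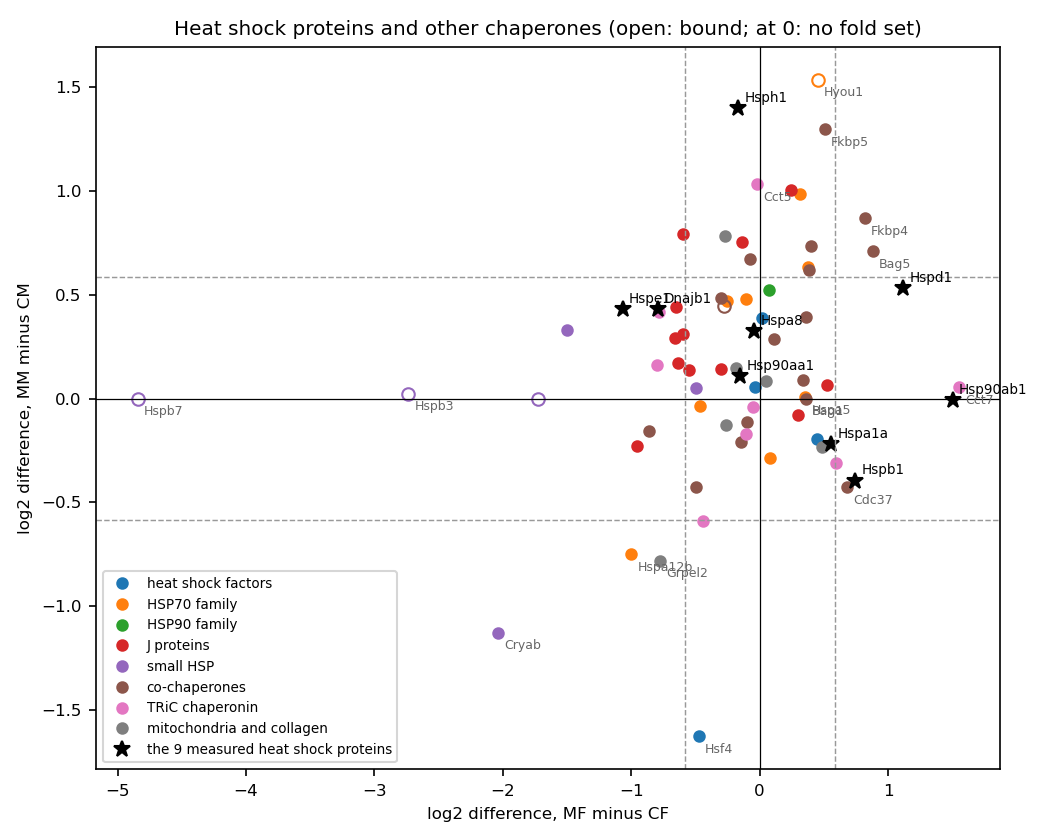
Log2 difference MF minus CF (x axis) against MM minus CM (y axis) for the 9 heat shock proteins (black stars) and the other chaperones by family (coloured). Open symbols are bounds where an array was not well above background, and those at 0 on the y axis have no fold there; dashed lines are 1.5-fold. Most J proteins lie left of 0, the small heat shock proteins Hspb7, Hspb3 and Cryab lie far to the left, and Cct7 lies beside Hsp90ab1.

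In MF vs CF the highest of the list was Cct7, a TRiC subunit, at 2.94-fold higher, with levels of 6.76 on MF, 5.21 on CF, 5.23 on MM and 5.18 on CM. The lowest were Hspb7, at least 28.7-fold lower on MF, Hspb3, at least 6.66-fold lower, and Cryab. In MM vs CM the highest were Hyou1, the HSP110 of the endoplasmic reticulum, at least 2.90-fold higher, Fkbp5, an inhibitor of steroid receptors, 2.46-fold higher, and Cct5, 2.05-fold higher, although its difference was 0.0065 with the position trend removed. The lowest were Cryaa, a lens crystallin, 3.62-fold lower on MM, Hsf4, a heat shock factor of the lens, 3.09-fold lower, and Cryab. The probes of Hyou1, Cryaa and Hsf4 were dim. Hyou1 had levels of -3.09 on MM and -4.78 on CM and was not well above background on CM. Cryaa had levels of -4.95 on MM and -3.09 on CM and was not well above background on MF or CF. Hsf4 had -4.31 on MM and -2.69 on CM.

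Of the small heat shock proteins other than Hspb1, 5 of 6 were over 1.5-fold lower in MF vs CF, beside 21.1% of all genes. The remaining gene, Hspb6, was lower too but short of that fold, at 1.41-fold. Of the 5, the values of Hspb3 and Hspb7 are bounds. In MM vs CM 2 of 7 were over 1.5-fold lower, beside 23.1% of all genes, and 3 of the 7 were bounds. Heart muscle markers were also lower on MF than on CF. All 7 of their list had a value, 5 of them well above background on all 4 arrays. Their summed level was 114 times the 75th percentile on CF, 2.39 on MF, 2.79 on MM and 5.16 on CM. CF alone thus had a high sum of heart muscle transcripts. Intestinal markers had summed levels of 81.3 on MF, 8.43 on CF, 32.2 on MM and 7.37 on CM. Muc2 was not well above background on any array, and only 3 of the 7 intestinal markers were on all 4. The median difference over the 7 was 4.38 in MF vs CF and -0.83 in MM vs CM. In males the sum and the median thus went in opposite directions. Immediate early genes such as Fos had 26.2 on MF, 12.5 on CF, 9.87 on MM and 10.6 on CM. Granulocyte markers had 1810 on MF, 883 on CF, 905 on MM and 1210 on CM. MF, where 4 of the heat shock protein genes were highest, thus also had the highest sums for intestine, granulocytes and immediate early genes. The hepatocyte sum was highest there too, 8150 beside 7850 on CF, 5310 on MM and 8050 on CM. So was that of exocrine pancreas, 4.84 beside 3.15 on CF, 2.46 on MM and 3.85 on CM. Erythroid markers had 2650 on MF, 3360 on CF, 1820 on MM and 3260 on CM. The part of these cells and of RNA handling in the results was not tested. In whole tissue, fewer cells of a type and less RNA per cell cannot be told apart.

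The profile of Hspa1a over the 4 arrays was set against those of the other chaperones by the root mean square difference after centring each gene on its mean. The nearest were Cdc37, which brings kinases to HSP90, at 0.10, Hspa5, the HSP70 of the endoplasmic reticulum, at 0.11, and Bag1, an HSP70 exchange factor, at 0.12. Cdc37 had levels of 5.30 on MF, 4.61 on CF, 4.14 on MM and 4.57 on CM. Hspa5 had 6.91 on MF, 6.56 on CF, 6.27 on MM and 6.27 on CM, and Bag1 had 5.81 on MF, 5.46 on CF, 5.04 on MM and 5.04 on CM. Likeness over 4 arrays is a description of these arrays.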

How the data were processed

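Whole liver RNA of 4 groups was Cy3-labelled and put on Agilent mouse arrays with probes of 60 bases, 1 array for each group. Scans were read by the authors with version 10.7.3.1 of Agilent Feature Extraction. The processed signal deposited by the authors is an intensity on a linear scale after background subtraction, and the detrending factor by which the software divided it is a ratio deposited beside it. The authors' table of values equals the processed signal in 62976 of 62976 spots and is not normalized between arrays. The arrays share a slide, on which the microsomic and the control arrays occupy different columns, so column and condition cannot be told apart.

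From these intensities a log2 level was computed relative to the 75th percentile over the 59305 non-control spots of the same array. The percentile was 892.8 on MF, 675.9 on CF, 925.0 on MM and 627.6 on CM. Any of the 4 arrays could exclude a spot by an outlier flag, which removed 1754 spots, and the brightest probe stood for its gene. Genes entered a comparison if at least 1 array of the pair had them well above background. On a dim array the probe's own signal or, where higher, the lowest signal called well above background took its place, which gives a lower bound. limma 3.58.1 in R 4.3.3 was fitted to genes that exceeded background on each of the 4 arrays, called at 0.05 after Benjamini-Hochberg adjustment, and was tested on simulated data.

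The text names all 10 heat shock protein genes with all their probes and, of the other chaperones, those past 1.5-fold the same way in both sexes, the 3 highest and 3 lowest of each comparison within a sex, and the 3 with a profile nearest to that of Hspa1a. The members and lists were chosen with earlier results of these data known. Alternatives tried were median centring, quantile normalization, normexp (offset 50) with quantile normalization, no scaling, flagged spots kept, the mean over the probes, removal of trends with GC content or array position (medians of blocks of 32 rows and 21 columns), other filters on dim probes, a 2-fold threshold and other limma settings. Undoing the detrending was added after seeing the data. Probes are placed on mm9 as in the array annotation, and promoters are from RefSeq on GRCm38.p6, used for sequence alone.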

Additional observations from a re-analysis of the deposited data

Results flagged for a closer look

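In 2 of the 9 genes the difference between microsomic and control liver had opposite signs in the sexes, each past the SD between spots of 1 probe. The share of all genes with such opposite signs was not computed, so nothing particular to heat shock proteins is read from this count. For Dnajb1 it was -0.79 in MF vs CF and 0.43 in MM vs CM. For Hspe1 it was -1.07 in MF vs CF and 0.43 in MM vs CM. The opposite signs depend on the processing. With the detrending undone Hspe1 was -0.28 in females and -0.41 in males, and with normexp -0.91 and -0.46, so both sexes were lower. Dnajb1 in females was 0.35 with the position trend removed and 0.081 with the detrending undone, and in males -0.37 with normexp and -0.28 with the detrending undone. The difference between the sexes was not tested, since there is 1 array for each group.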

How the results depend on the processing

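With 1 array for each group no array could be left out, and the number of arrays and the unknown spread between animals limit every value. No paired analysis was possible because each group has 1 array. The count of heat shock proteins past 1.5-fold in MF vs CF, 5, rose to 7 with quantile normalization and to 6 with median centring and with the GC trend removed. It was 4 with the detrending undone, 3 with the position trend removed and 3 at 2-fold. In MM vs CM the count of 1 became 4 with median centring, 2 with quantile normalization, 4 with normexp, 6 without scaling, 3 with the position trend removed and 4 with the detrending undone, and the medians without scaling were 0.36 in MF vs CF and 0.88 in MM vs CM. In CM vs CF the count of 3 became 7 with median centring and 5 with normexp, with the position trend removed and with the detrending undone. It was 4 without scaling and 2 with the mean over the probes and at 2-fold. In MM vs MF the count of 6 became 7 with quantile normalization, 5 with median centring and with the position trend removed, 3 with the detrending undone and 3 at 2-fold. For the other chaperones the count of 21 in MF vs CF was 7 at 2-fold and lay from 18 to 28 under the alternatives at 1.5-fold. The count of 20 in MM vs CM was 40 without scaling, 36 with the position trend removed, 31 with the detrending undone, 30 with normexp and 7 at 2-fold.

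Among the differences past 1.5-fold of the genes named, the direction in MF vs CF turned for Dnajb1 (0.35 with the position trend removed, 0.081 with the detrending undone), Hspb1 (-0.22) and Bag5 (-0.078) with the position trend removed, Cdc37 (-0.11 with normexp) and Grpel2 (0.038 with normexp and 0.042 with the detrending undone). In MM vs CM it turned for Grpel2 (0.96 with normexp, 0.69 with the GC trend removed, 0.24 with the position trend removed, 1.03 with the detrending undone). Of the smaller differences past the SD between spots it turned in MF vs CF for Hspa1a (-0.45 with the position trend removed), and in MM vs CM for Dnajb1 (-0.37) and Hspe1 (-0.46) with normexp and (-0.28 and -0.41) with the detrending undone, and for Cdc37 (0.26 with normexp, 0.13 without scaling, 0.32 with the detrending undone). Differences within that SD also turned under 1 alternative or more, in MF vs CF for Hspa8, Hsph1, Hsp90aa1, Bag1 (to -0.64 with the position trend removed), Hspa5 (to -0.54 with normexp) and Cct5, and in MM vs CM for Hspa1a, Hspa8, Hsp90aa1, Hsp90ab1, Hspb1, Hspa5 and Cct7. The cause was not tested. No limma setting called a heat shock protein. Undoing the detrending was chosen after seeing the data.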
